A study of Mus musculus with 11 samples.

Results

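The cytosolic ribosomal protein genes are the genes that encode the protein subunits of the ribosome in the cytoplasm. They were taken by symbol, as every row of the count table named Rpl or Rps and a number, with an optional a, x or l, together with the P-stalk genes Rplp0, Rplp1 and Rplp2 and with Rpsa. Rps3a was left out by the same rule. Of 22609 genes in the table, 80 carried such a symbol, and 77 of them had at least 10 counts in total over the 11 libraries. These 77 comprised 47 genes of the large subunit and 30 of the small subunit, and all 77 entered the fit across 17557 genes. The other three were Rps23 with 2 counts in total, and Rpl26 and Rpl10l, each with 0 counts.

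Each cytosolic ribosome carries one copy of most of these proteins, built around ribosomal RNA in a small subunit, which reads the messenger RNA, and a large subunit, which joins the amino acids. The messenger RNAs of this family start with a short run of pyrimidines, the terminal oligopyrimidine tract, through which their translation responds to growth signals. Mammalian genomes hold many processed copies of these genes, pseudogenes that arose by reverse transcription of the messenger RNA, so that a sequencing read from a ribosomal protein gene often matches several places equally well. In neurons, ribosomes are made in large numbers in the cell body and are also carried into dendrites.

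The series asked how loss of Neurofascin and Ankyrin G, 2 proteins of the axon initial segment, in Purkinje cells changes the RNA of the cerebellar hemisphere. Polyadenylated RNA of dissected tissue was sequenced from mice at postnatal day 32 by the protocol, or day 30 by the sample descriptions, on a background given as mixed C57BL/6J;129 in one label and as C57BL/6J in another. The groups were control (3 libraries; floxed alleles without Cre per the study's methods), Pcp2-Cre;NfascFx/Fx (NFKO, 3 libraries), Pcp2-Cre;AnkGFx/Fx (AnkGKO, 2 libraries) and Pcp2-Cre;NfascFx/Fx;AnkGFx/Fx (DKO, 3 libraries). Mice were untreated and of mixed sex. The Pcp2 promoter drives Cre in Purkinje cells, which are a small share of the cells in such tissue, and ribosomal protein genes are used in every cell.

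The libraries held 38890851 to 55822361 counts assigned to genes. Ank3, which encodes Ankyrin G, is given in CPM, its count relative to the library total scaled by the trimmed mean of M-values (TMM). Its range was 353 to 375 CPM in control, 385 to 407 CPM in NFKO, 156 to 200 CPM in AnkGKO and 160 to 185 CPM in DKO. Nfasc, which encodes Neurofascin, stood at 661 to 718 CPM in control and 622 to 701 CPM in NFKO, ranges that overlapped. It was at 717 and 953 CPM in AnkGKO and at 559 to 606 CPM in DKO. The tissue label was checked against marker genes. The granule cell gene Gabra6 reached 84.2 CPM in control replicate 1 and 59.0 CPM in NFKO replicate 1, at 4.41 and 4.24 CPM in the second replicates of those groups and at 0.0186 to 1.61 CPM in the other seven, whereas the sum of 11 caudal Hox genes, which are not used in cerebellum, lay between 389 and 608 CPM in every library. The Purkinje cell gene Pcp2 was at 26.3 CPM in control replicate 1 and 28.3 CPM in NFKO replicate 1. It was at 1.43 and 2.14 CPM in replicate 2 of these groups and at 0.0929 to 0.374 CPM in all other libraries. The sum of 8 Purkinje cell markers, Pcp2 among them, was 432 to 1385 CPM over the libraries. Gabra6, Pcp2 and the Hox genes thus went against the label in most libraries. Xist, the RNA of the inactive X chromosome, reached 464 CPM in control replicate 1, 598 CPM in control replicate 2, 459 CPM in DKO replicate 2 and 469 CPM in DKO replicate 3. It was lower, at 28.4 CPM, in DKO replicate 1, and lay at 0.344 to 1.39 CPM in control replicate 3 and all NFKO and AnkGKO libraries. Since tissue was sampled in bulk, fewer cells of a type and less RNA per cell cannot be told apart.

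The count table came with summary lines for reads that were not assigned. Reads aligned to more than one place made up 32.5% to 34.3% of the reads listed for each library, and they were counted for no gene. To describe how far each gene could be counted, the coding part of its GENCODE transcript was cut into all words of 50 bases, and each word was looked up in the rest of GRCm39. In the median ribosomal protein gene 89.6% of the coding words also occurred elsewhere in the genome, against 0% in the median of the other 16416 protein-coding genes. Over 50% of the coding words were shared in 60 of the 77 genes, or 77.9%, and in 4.43% of the other genes. Copies ran to 45 other places for the most frequent word of Rpl7a, 44 for Rpl21, 36 for Rps2 and 32 for Rpl29.

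Stretches of 100 coding bases, each within one exon, show the range of this sharing. They are printed from the coding strand of GRCm39 5′ to 3′, with capitals for bases that lie in a word of 50 bases found elsewhere in the genome and lower case for the rest. Rpl4 was chosen as a gene with high counts, Rps2, Rps18, Rps15a and Rplp0 as genes whose counts varied between libraries, and Rps23 as a gene with almost none.
Rpl4, chr9:64084223-64084322, plus strand, exon 6: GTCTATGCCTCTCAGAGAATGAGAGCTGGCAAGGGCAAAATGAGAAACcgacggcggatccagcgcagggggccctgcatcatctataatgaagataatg
Rps2, chr17:24939250-24939349, plus strand, exon 1: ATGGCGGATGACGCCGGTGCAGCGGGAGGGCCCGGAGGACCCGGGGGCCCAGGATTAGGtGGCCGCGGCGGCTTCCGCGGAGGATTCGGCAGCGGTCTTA
Rps18, chr17:34171466-34171565, minus strand, exon 3: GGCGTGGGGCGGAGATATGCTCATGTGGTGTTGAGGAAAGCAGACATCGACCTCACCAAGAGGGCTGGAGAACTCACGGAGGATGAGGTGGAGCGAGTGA
Rplp0, chr5:115698800-115698899, plus strand, exon 3: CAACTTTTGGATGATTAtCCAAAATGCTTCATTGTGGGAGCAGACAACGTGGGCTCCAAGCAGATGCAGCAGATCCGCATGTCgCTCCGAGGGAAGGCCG
Rps15a, chr7:117714365-117714464, minus strand, exon 2: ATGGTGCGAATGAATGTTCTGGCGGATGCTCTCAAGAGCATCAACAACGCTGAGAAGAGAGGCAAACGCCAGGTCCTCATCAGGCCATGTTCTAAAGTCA
Rps23, chr13:91071706-91071805, plus strand, exon 2: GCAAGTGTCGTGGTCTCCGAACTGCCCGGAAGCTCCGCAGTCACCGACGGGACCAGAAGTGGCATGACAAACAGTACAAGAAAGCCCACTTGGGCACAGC

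The stretch of Rpl4 held 48 shared bases, whose words occurred at 1 other place. That of Rps2 held 99 shared bases of 100, with words at up to 7 other places, and that of Rplp0 held 98. All 100 bases were shared in the stretches of Rps18, Rps15a and Rps23, and the words of the Rps23 stretch occurred at up to 8 other places. Over its whole coding part Rps23 had no word of its own, and only 12.5% of the words of Rpl10l, a paralog of Rpl10 used in testis, were shared.

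The levels of the 77 genes, on the scale of CPM per kilobase of coding sequence, ranged from 0.254 for Rpl39l, a gene with 20 counts in total, to 444 for Rplp1. Among the highest were Rplp1 (444 CPM per kilobase), Rpl8 (326), Rps3 (324) and Rpl4 (245). Rplp1 encodes a P-stalk protein, Rpl8 a core protein near the site of peptide bond formation, Rps3 a protein at the entry of the messenger RNA and Rpl4 a protein of the nascent chain tunnel. In control the neighbours Rpl8 (325 ± 12.5, SD, n = 3) and Rps3 (326 ± 26.5) did not differ beyond their spread, whereas Rplp1 (436 ± 36.5) stood above both and Rpl4 (239 ± 3.88) below them. The 5 lowest were Rpl39l (0.254 CPM per kilobase), Rps29 (0.380), Rpl29 (0.407), Rpl24 (0.424) and Rps13 (0.521), each with a mean below 0.25 CPM. On the scale of CPM, 8 genes had a mean of at least 100, 34 of at least 10 and 22 of less than 1, and Rpl4, Rpl8 and Rps3 together took 33.9% of all CPM of the family.

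Levels and sharing ran in opposite directions. The 17 genes with less than 50% of their words shared had a median of 168 CPM per kilobase, the 34 genes with 50% to less than 100% shared a median of 23.3, and the 26 genes with all words shared a median of 1.98. Across the 77 genes Spearman's rho between the shared percentage and the level was -0.57, a description across genes that share libraries and are not independent. Exceptions lay on both sides. Rpl15 and Rpl27a reached 81.4 and 64.0 CPM per kilobase with all coding words shared, and Rps15a 200 with 84.2% shared. Rpl3l and Rpl39l, with 0% shared, reached 0.659 and 0.254, and Rps29, with 47.9% shared, 0.380. Reads can also come from the untranslated parts of a transcript, which were not searched here. The part of unassigned reads in these levels was not tested.

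**Figure D1:**
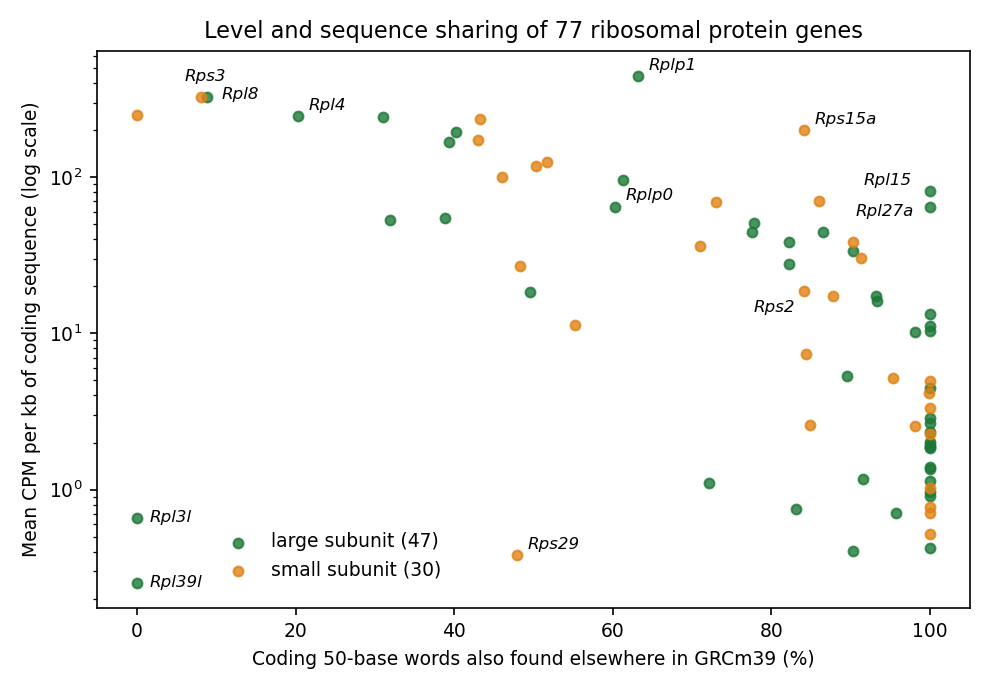
Each point is 1 of the 77 ribosomal protein genes, large subunit in green and small subunit in orange. The x axis gives the percentage of the gene's coding 50-base words that also occur elsewhere in GRCm39, and the y axis, on a log scale, its mean CPM per kilobase of coding sequence over 11 libraries. Rps3, Rpl8 and Rpl4 sit at the upper left and most genes with all words shared below 10 CPM per kilobase, with Rpl15 and Rpl27a above them.

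The family was also searched for the pyrimidine tract at the start of transcription, in the RefSeq promoter windows of GRCm38.p6. Windows were found for 57 of the 77 genes. A C followed by at least 6 more pyrimidines on the coding strand, within 50 bases on either side of the annotated start, was present in 50 of the 57, or 87.7%, against 44.5% of all 27025 genes with a window. Windows of 30 bases are shown for 6 genes, with the tract in capitals.
Rps18, chr17:33955646-33955675, minus strand: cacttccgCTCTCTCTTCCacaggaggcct
Rps15a, chr7:118116141-118116170, minus strand: ccggcccaCTCTCTTTCTgccatcttccct
Rps6, chr4:86857347-86857376, minus strand: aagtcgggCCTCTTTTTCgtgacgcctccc
Rpl15, chr14:18270969-18270998, minus strand: ggagaaagCCTTCTTCCTTTCCTCTggcgg
Rpl31, chr1:39367825-39367854, plus strand: tcgccacaCCTCTTCCTCCTCgcctccccg
Rps10, chr17:27635226-27635255, minus strand: cgcgcacgCCCCTTCCTTTCCagcctccgc

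The tracts in these windows were 10 to 17 bases long. Their first base was at -15 from the annotated start in Rps15a and at -18 in Rpl31, and both of these tracts ended before it. It was at -2 in Rps18, -1 in Rps6, -4 in Rpl15 and -3 in Rps10. A run of pyrimidines near an annotated start is a description of the letters and does not show where transcription starts.

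Summed over the 77 genes, the family took 0.204% to 0.258% of the counts of a library. The sum was 2247, 2366 and 2328 CPM in control, 2281, 2303 and 2559 CPM in NFKO, 2338 and 2106 CPM in AnkGKO, and 2351, 2550 and 2354 CPM in DKO. NFKO replicate 3 and DKO replicate 2 were highest and AnkGKO replicate 2 was lowest, and the ranges of NFKO, AnkGKO and DKO all overlapped that of control. The means were 2313 ± 60.8 CPM in control, 2381 ± 155 CPM in NFKO, 2222 ± 164 CPM in AnkGKO (n = 2) and 2418 ± 114 CPM in DKO. The sum over the small subunit divided by the sum over the large subunit lay between 0.678 and 0.751 in the 11 libraries. Without Rpl4, Rpl8 and Rps3 the sums were 1489 to 1554 CPM in control and 1519 to 1690 CPM in NFKO, 1404 and 1520 CPM in AnkGKO and 1537 to 1714 CPM in DKO, which again overlapped.

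Rps2 was the only ribosomal protein gene that passed the test in any comparison. It encodes a protein of the small subunit near the channel through which the messenger RNA enters, and lies on chromosome 17 from 24937080 to 24940904 (GRCm39, plus strand, 5 exons). Rps2 stood at 20.04, 19.75 and 20.09 CPM in control, at 4.59, 3.16 and 6.47 CPM in NFKO, at 18.6 and 19.6 CPM in AnkGKO, and at 20.4, 24.9 and 21.7 CPM in DKO. All 3 NFKO libraries lay below all 8 others, so that the groups did not overlap. Rps2 was 2.07 lower on the log2 scale in NFKO than in control (log2 fold change -2.07, SE 0.20, adjusted p = 0.000525, edgeR quasi-likelihood test with Benjamini-Hochberg adjustment over 17557 genes) and 2.23 higher in DKO than in NFKO (SE 0.20, adjusted p = 0.00033). The differences were small in AnkGKO against control (-0.06, SE 0.21, adjusted p = 0.998) and in DKO against control (0.16, SE 0.19, adjusted p = 0.847).

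The interaction of the knockouts asks whether the difference of DKO from AnkGKO was another than that of NFKO from control. For Rps2 it was 2.30 on the log2 scale (SE 0.29, adjusted p = 0.00444, edgeR), and with Xist as a covariate it was 2.15 and its adjusted p was 0.294. Over all genes the interaction called 93 without this covariate and 20 with it. The Xist level was near 0 in every NFKO library, in control replicate 3 and in both AnkGKO libraries. In control replicate 3 and the AnkGKO libraries Rps2 was at 20.09, 18.6 and 19.6 CPM. The cause of the Rps2 difference was not tested. The call of Rps2 in NFKO against control and in DKO against NFKO held in each of the 20 alternatives tried for it, with log2 fold changes of -2.36 to -1.85 and of 2.01 to 2.52.

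Rps2 shares 84.1% of its coding words of 50 bases with other places, and 132 words are its own. Reads of Rps2 that matched several places equally well were thus not counted for it. The table row Gm10653, a pseudogene with 121 of its 786 words in the coding part of Rps2, was at 0.0182 to 0.0770 CPM in all libraries. Snhg9, a noncoding RNA annotated on chromosome 17 from 24938495 to 24939471, overlaps Rps2 and the stretch of Rps2 shown above, so that its shared words can be the same bases. With 128 of its 676 words in the coding part of Rps2, it stood at 0.0952 to 0.312 CPM in control, 0 to 0.115 CPM in NFKO, 0 and 0.130 CPM in AnkGKO and 0.280 to 0.364 CPM in DKO. Reads that matched several places were counted for no gene, and the part of this loss in the Rps2 counts was not tested.

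Rps2 was 1 of 7 members on chromosome 17. Its neighbour Rpl3l begins 5847 bases after its end, and its log2 fold change in NFKO against control was 1.18 (SE 0.54, adjusted p = 0.647), while those of Rps10, Rpl10a, Rps28 and Rpl36 were 0.03, -0.29, -0.16 and 0.06. Rps18, a small subunit protein at the head of the subunit, has its gene on chromosome 17 from 34170972 to 34175057. It stood at 7.64, 9.72 and 7.83 CPM in control, 4.59, 4.53 and 9.35 CPM in NFKO, 9.51 and 7.23 CPM in AnkGKO, and 8.40, 9.85 and 8.70 CPM in DKO. NFKO replicates 1 and 2 were the lowest of the 11 libraries, whereas NFKO replicate 3 lay within the range of control, and the difference from control did not pass the test (log2 fold change -0.45, SE 0.26, adjusted p = 0.790). In DKO against NFKO it was 0.54 (SE 0.26, adjusted p = 0.326), and without NFKO replicate 3 this comparison called 2 members, Rps18 and Rps2.

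**Figure D2:**
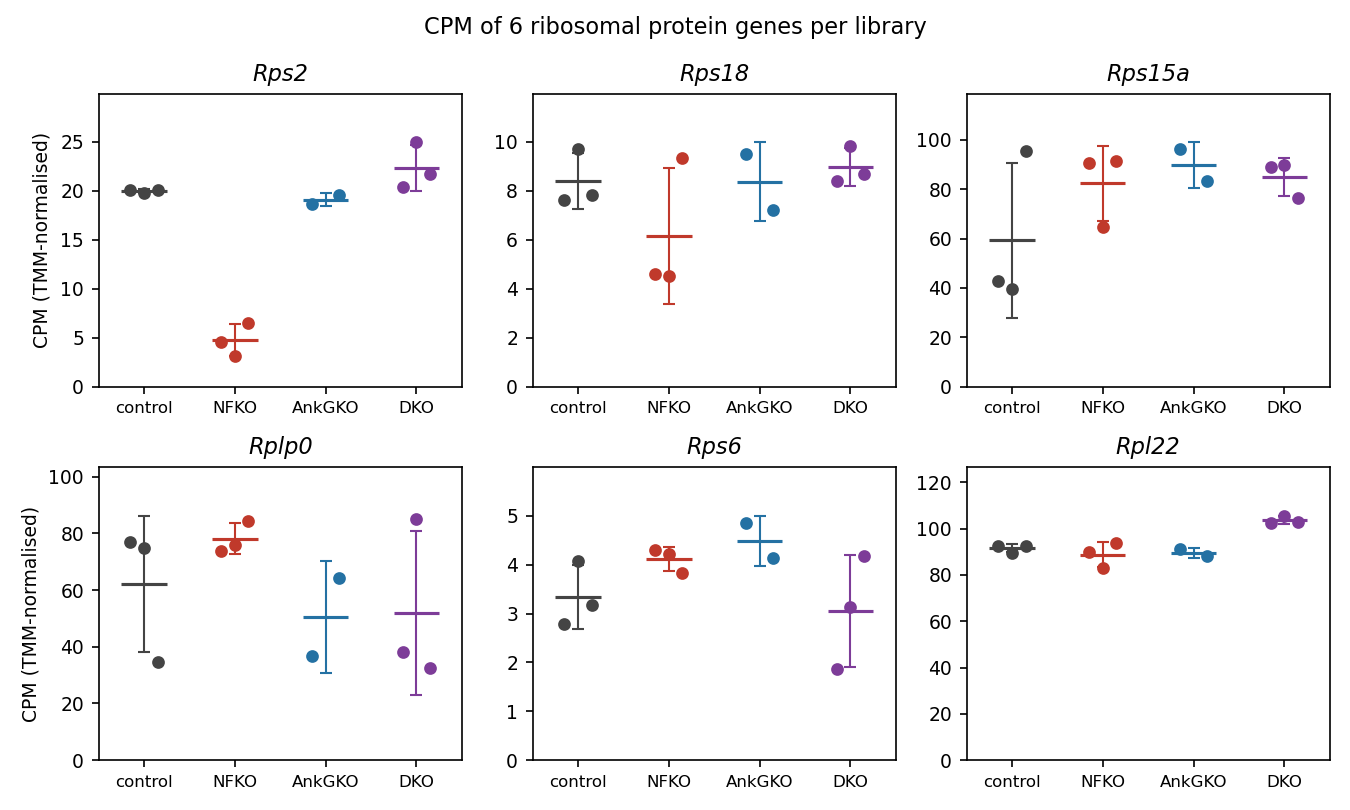
CPM of Rps2, Rps18, Rps15a, Rplp0, Rps6 and Rpl22 in control, NFKO, AnkGKO and DKO. Each point is 1 library, the long line is the mean, the bars are 1 SD, and each y axis starts at 0. The 3 NFKO libraries of Rps2 sit between 3.16 and 6.47 CPM below all others, and Rps15a and Rplp0 fall into high and low libraries within a genotype.

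The comparison of NFKO with control asked what loss of Nfasc changed. Of the 77 genes 1 was called, with an adjusted p below 0.05 and a log2 fold change of 0.6 or more in size, against 0.365% of all genes tested, and 5 had an unadjusted p under 0.05 (3 higher and 2 lower), against 7.69% of all genes. The median log2 fold change of the family was 0.07, with 51 of 77 genes higher, against -0.00495 and 48.2% over all genes. Without NFKO replicate 3, the library with the highest sum, the median was 0.00875. Rpl21 stood at 2.00, 1.55 and 1.95 CPM in control and at 2.33, 2.58 and 2.81 CPM in NFKO, groups that did not overlap (log2 fold change 0.49, SE 0.18, adjusted p = 0.496). Rps25 had a log2 fold change of 0.51 (SE 0.22, adjusted p = 0.611). Rpl39l had one of -2.24 (SE 1.15, adjusted p = 0.733) on few counts. Rpl17, a protein at the exit of the nascent chain tunnel, stood at 1.12, 1.21 and 1.14 CPM in control and at 0.727, 0.732 and 0.799 CPM in NFKO. It was also below all control libraries in AnkGKO, at 0.867 and 0.912 CPM (log2 fold change -0.38, SE 0.23, adjusted p = 0.998), and stood at 1.12, 1.14 and 1.47 CPM in DKO. Its difference of -0.62 in NFKO against control (SE 0.21, adjusted p = 0.432) and its interaction of 1.11 (SE 0.31, adjusted p = 0.208) did not pass the test, and all of its coding words are shared.

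The comparison of AnkGKO with control asked what loss of AnkG changed, with 2 libraries in AnkGKO. No member was called by edgeR (0 of 77, against 0.165% of all genes), and DESeq2 called 0 as well. At an unadjusted p under 0.05 there were 2 members, both lower, against 5.39% of all genes. These were Rpl13a, at 120, 124 and 121 CPM in control against 111 and 98.8 CPM in AnkGKO (log2 fold change -0.21, SE 0.09, adjusted p = 0.839), and Rps21 (-0.34, SE 0.15, adjusted p = 0.902). Rpl39, which lines the nascent chain tunnel, gave -0.29 (SE 0.14, adjusted p = 0.934). The median of the family was -0.05 with 26 of 77 genes higher, against -0.00505 and 48.7% over all genes, and without AnkGKO replicate 1 the median was -0.0877. AnkGKO replicate 2 was the lowest library of 11 in several of the highest genes, among them Rpl4 at 277 CPM and Rps3 at 192 CPM. The largest rise in value, 1.10 for Rpl24 (SE 0.51, adjusted p = 0.934), was that of a gene at 0.101 to 0.391 CPM in all libraries.

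The comparison of DKO with control asked what loss of both changed. Again 0 of 77 members were called by edgeR, against 0.0228% of all genes, and 0 by DESeq2. At an unadjusted p under 0.05 there were 4 (3 higher and 1 lower), against 7.77% of all genes. Rpl22, a large subunit protein that also binds other RNAs, stood at 92.3, 89.4 and 92.5 CPM in control, 89.8, 82.9 and 93.6 CPM in NFKO, 91.0 and 88.1 CPM in AnkGKO and 103, 105 and 103 CPM in DKO. All 3 DKO libraries lay above the other 8, by a log2 fold change of 0.18 against control (SE 0.06, adjusted p = 0.581), 0.22 against NFKO (SE 0.06, adjusted p = 0.111) and 0.21 against AnkGKO (SE 0.06, adjusted p = 0.436). Rps4x, an X-linked gene, gave 0.24 against control (SE 0.07, adjusted p = 0.562), with 26.8 to 29.9 CPM in control and 32.3 to 34.1 CPM in DKO. In the other direction Rpl27a gave -0.15 (SE 0.08, adjusted p = 0.648) and Rpl29 -0.81 (SE 0.64, adjusted p = 0.746). The value of Rpl29 came from control replicate 1, at 0.598 CPM against 0.0952 to 0.217 CPM in the other ten, and without that library it turned to 0.46. The median of the family was 0.04, with 48 of 77 genes higher, against -0.000624 and 49.8% over all genes. Without DKO replicate 2, the DKO library with the highest sum, the median turned to -0.0113, and without DKO replicate 1 it was 0.0690.

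In DKO against NFKO 1 of 77 members was called, Rps2, against 0.615% of all genes, and 4 had an unadjusted p under 0.05 (3 higher and 1 lower) against 16.2% of all genes. Rpl35a (-0.22) and Rpl31 (-0.31) had adjusted p of 0.325 and 0.344. The median was -0.02, with 36 of 77 genes higher, against 0.000313 and 50.1% over all genes, and without NFKO replicate 3 it was 0.04. In DKO against AnkGKO 0 of 77 were called by edgeR and by DESeq2, against 0.171% of all genes by edgeR, and 8 had an unadjusted p under 0.05 (6 higher and 2 lower) against 8.48% of all genes. Rps24 stood at 13.7 and 14.1 CPM in AnkGKO and 16.4, 18.1 and 17.6 CPM in DKO (log2 fold change 0.32, SE 0.11, adjusted p = 0.511), and Rps13 gave -0.89 (SE 0.39, adjusted p = 0.579) at 0.140 to 0.330 CPM. Rps6 gave -0.55 (SE 0.27, adjusted p = 0.614). The median was 0.12, with 56 of 77 genes higher, against 0.00327 and 50.7% over all genes. For the interaction 1 of 77 was called, against 0.53% of all genes, and 6 had an unadjusted p under 0.05 (4 higher and 2 lower) against 10.3% of all genes, and the median was 0.04. The comparisons with control share the control libraries, and those with DKO share the DKO libraries.

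**Figure D3:**
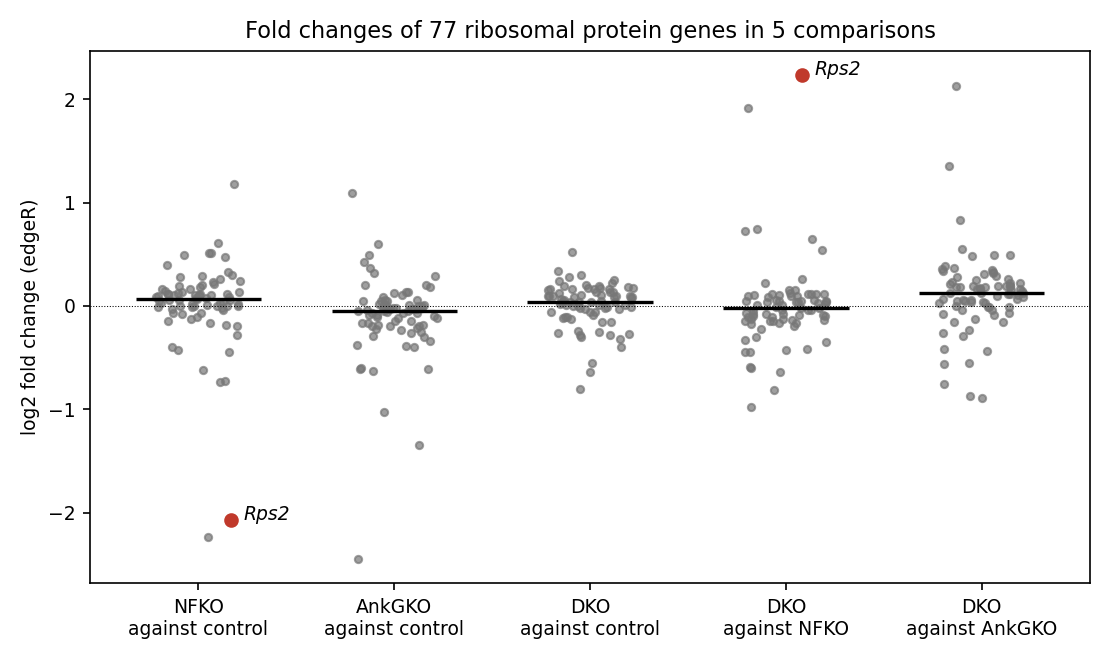
Log2 fold changes of the 77 ribosomal protein genes in 5 comparisons, by edgeR, with sideways jitter. The black lines are the medians, at 0.07, -0.05, 0.04, -0.02 and 0.12 from left to right, and red points passed the adjusted p and the fold-change threshold. Only Rps2 is red, in NFKO against control and in DKO against NFKO, and the grey point near it at -2.24 is Rpl39l, a gene below 0.12 CPM.

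A few genes with ample counts split into high and low libraries without following genotype. Rplp0, the base of the P-stalk, stood at 77.1, 74.9 and 34.5 CPM in control, 73.8, 76.0 and 84.2 CPM in NFKO, 36.6 and 64.4 CPM in AnkGKO, and 38.1, 85.1 and 32.6 CPM in DKO. Control replicate 3, AnkGKO replicate 1 and DKO replicates 1 and 3 lay at 32.6 to 38.1 CPM and the rest at 64.4 to 85.1 CPM. Its partners did not split in this way, with Rplp1 at 135 to 167 CPM and Rplp2 at 16.5 to 21.0 CPM over all libraries.

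Rps15a, a small subunit protein, stood at 42.8, 39.7 and 95.3 CPM in control, 90.7, 64.8 and 91.4 CPM in NFKO, 96.3 and 83.2 CPM in AnkGKO and 89.1, 89.9 and 76.2 CPM in DKO. Control replicates 1 and 2 were low and control replicate 3 was second among the 11 libraries. With all libraries its log2 fold change was 0.47 in NFKO (SE 0.32, adjusted p = 0.880) and 0.60 in AnkGKO (SE 0.36, adjusted p = 0.998) against control. Without control replicate 3 it was called in both, so that NFKO against control held 2 called members and AnkGKO against control 1, the latter with a log2 fold change of 1.12 and an adjusted p of 0.038.

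Among genes with a mean of at least 1 CPM, the SD of log2(CPM + 0.5) within genotype had a median of 0.125 over 55 members and of 0.121 over 13910 genes. It exceeded 0.3 in 5 members, Rplp0 (0.57), Rps15a (0.41), Rps18 (0.33), Rps12 (0.31) and Rps6 (0.30), and in 8.59% of those genes. Over the control libraries alone the smallest spreads were those of Rpl7 (coefficient of variation 0.538%), Rps2 (0.924%) and Rpl13a (1.56%). The largest were those of Rpl29 (104%), Rps29 (76.4%) and Rpl39l (60.3%), each with a mean below 0.25 CPM over the 11 libraries.

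Rps6, the protein of the small subunit that is phosphorylated by the S6 kinases, stood at 2.78, 4.07 and 3.17 CPM in control, 4.30, 4.22 and 3.83 CPM in NFKO, 4.85 and 4.13 CPM in AnkGKO and 1.87, 3.13 and 4.17 CPM in DKO. Its interaction of -0.85 (SE 0.37, adjusted p = 0.458) did not pass the test, and it has no coding word of its own. Rpl3, a core protein of the large subunit, was at 1.74 CPM in control replicate 1 and 1.93 CPM in NFKO replicate 1 and at 0.433 to 0.911 CPM in the other nine. These were the libraries with the highest summed levels of 8 granule cell markers, 797 and 677 CPM against 119 to 203 CPM elsewhere. The part of cell content in the Rpl3 counts was not tested.

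**Figure D4:**
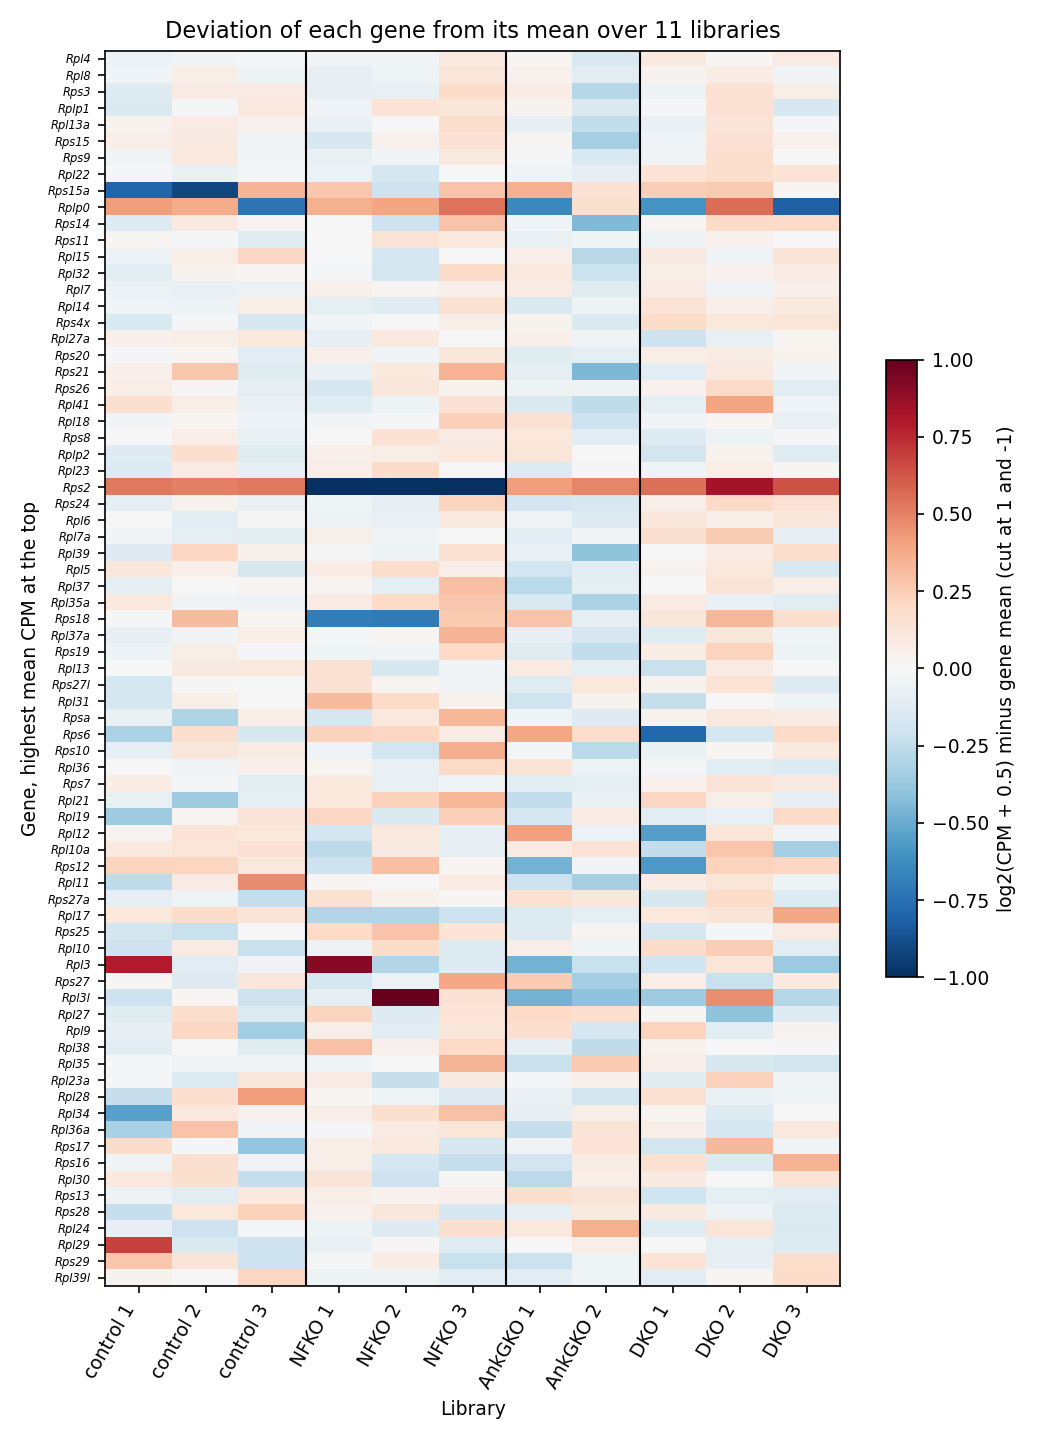
Each row is 1 gene, for 75 of the 77, ordered by mean CPM with the highest at the top, and each column 1 library. Colour gives log2(CPM + 0.5) minus the gene's mean over the 11 libraries, red above and blue below, cut at 1 and -1. Rps2 is blue in the 3 NFKO columns, while Rplp0 and Rps15a change colour within control.

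Among paralogs of ubiquitous ribosomal proteins, Rpl3l and Rpl39l were low and Rps27l was above its parent. Rpl3l, the paralog of Rpl3 in striated muscle, stood at 0.546, 0.725 and 0.548 CPM in control, 0.631, 2.68 and 0.836 CPM in NFKO, 0.371 and 0.413 CPM in AnkGKO and 0.443, 1.17 and 0.491 CPM in DKO. NFKO replicate 2 and DKO replicate 2 were highest, and these were also the libraries with the highest sum of 10 skeletal muscle markers, 593 and 337 CPM against 92.5 to 249 CPM in the other nine. Rpl39l, the paralog of Rpl39 in testis, did not exceed 0.119 CPM in any library, which is close to the level of 3 counts (0.0546 to 0.0780 CPM). Rps27l, the paralog of Rps27, stood at 5.98 to 7.56 CPM and Rps27 at 0.543 to 1.23 CPM over all libraries. Rps27 has no coding word of its own, while 48.3% of those of Rps27l are shared. The parent Rpl10 stood at 0.690 to 1.14 CPM.

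The members that bind the small ribosomal RNA of the large subunit, Rpl5 and Rpl11, which also restrain the p53 regulator Mdm2, did not pass the test in any comparison. Rpl5 stood at 10.3 to 13.5 CPM and Rpl11 at 0.739 to 1.67 CPM, with Rpl11 at -0.61 in AnkGKO against control (SE 0.30, adjusted p = 0.948). Rpsa, also known as the laminin receptor, stood at 2.88 to 4.76 CPM and Rps27a, made as a fusion with ubiquitin, at 0.809 to 1.26 CPM. Of the 20 genes listed for mutation in Diamond-Blackfan anemia, a failure of red cell formation, 19 were tested and 0 were called by edgeR in any of the 6 comparisons, with 1 at an unadjusted p under 0.05, higher in DKO than in AnkGKO, where 8.48% of all genes had such a p. Of those 19 genes, 15 were higher in NFKO, 5 in AnkGKO and 8 in DKO than in control, against 48.2%, 48.7% and 49.8% of all genes and against 51, 26 and 48 of the 77 members.

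Genes that work with the family were described from lists. Of 19 translation factors of the terminal oligopyrimidine class, 0 were called in any comparison by edgeR. In DKO against control 16 of the 19 were higher, 7 had an unadjusted p under 0.05, all higher, and the median log2 fold change was 0.11. Over all genes 49.8% were higher and 7.77% had such a p, with a median of -0.000624. In NFKO 11 of the 19 were higher, against 48.2% of all genes, and in AnkGKO 9, against 48.7%. Among the 7 were Naca (0.24, SE 0.07, adjusted p = 0.562), which guards nascent chains, Nap1l1 (0.22, SE 0.06, adjusted p = 0.546), a histone chaperone, and Eif4b (0.23, SE 0.09, adjusted p = 0.619), an initiation factor. Summed CPM of the list was 2731 to 2831 in control, 2717 to 2918 in NFKO, 2800 and 2824 in AnkGKO and 2891 to 3132 in DKO, so that control and DKO did not overlap. Cell type markers were compared between the same groups. By edgeR 0 motor neuron and 0 granule cell markers were called, and 1 and 2 of them had an unadjusted p under 0.05. The summed level of 6 motor neuron markers was 217 to 388 CPM in control and 479 to 597 CPM in DKO, with 6 of 6 higher and a median log2 fold change of 0.76. That of 8 granule cell markers was 134 to 797 CPM in control and 119 to 158 CPM in DKO, ranges that overlapped, with 0 of 8 higher and a median of -2.10. Their part in the levels of the translation factors, and in those of Rpl22 and Rps4x, was not tested. Whether this list moved apart from other genes was not tested. Of 42 ribosome biogenesis genes, 0 were called by edgeR, and in DKO against control 2 were higher and 1 lower at an unadjusted p under 0.05, against 7.77% of all genes. Of 10 RNA polymerase I genes and of 18 genes that control ribosomal protein synthesis, 0 were called as well. In DKO against control 1 of the 10 was lower at an unadjusted p under 0.05, and of the 18 genes 1 was higher and 1 lower.

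The mitochondrial ribosomal proteins, which build a separate ribosome, gave 0 calls by edgeR among 76 genes in the 5 comparisons of 2 groups. Over all genes 0.0228% to 0.615% were called there. In the interaction 1 of the 76 was called, Mrpl9, against 0.53% of all genes. In AnkGKO against control 7 of the 76 were higher, with a median of -0.08 and 1 lower at an unadjusted p under 0.05, against 48.7% higher, a median of -0.00505 and 5.39% with such a p over all genes. The other cytosolic ribosomal proteins, found under symbols outside the rule, were 4 genes with 0 calls and 0 at an unadjusted p under 0.05 by edgeR, and their sum was 20.1 to 24.9 CPM.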

How the data were processed

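Poly(A) RNA-seq counts per gene were deposited by the authors as one table of 11 libraries. Per the labels and methods, reads were trimmed (Trimmomatic 0.39) and aligned to GRCm39 (STAR 2.7.11a), and the authors counted uniquely assigned reads per gene. The descriptions give single-end reads of 100 bases, whereas the study's methods give longer, paired-end reads. The strand setting of the counting is not given in the sources used here. Summary lines for unassigned reads (multiply aligned 32.5% to 34.3%, no feature 9.23% to 10.4%) were left out of library sizes. The deposited normalised table was not used.

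Genes with at least 10 counts in total (17557) were fitted with edgeR 4.0.16 (TMM, robust quasi-likelihood, 4 genotypes in one fit, Benjamini-Hochberg) in R 4.3.3. DESeq2 1.42.0, other scalings and filters, Xist as a covariate, the replicate number as a block, and leaving out each library were alternatives. On simulated counts of 17557 genes, edgeR recovered 81 of 100 genes at a log2 change of 1 and 100 of 100 at 2, with 6 false calls. The changed genes all had a mean above 1 CPM, and each gene took the spread of the trend at its level. Only NFKO against control was simulated, so that recovery in genes below 1 CPM or in AnkGKO is not known from it. Biological replicates are named by the labels. Deviations from the group means correlated between control and NFKO libraries of the same number (r = 0.547, 0.444 and 0.216). Between NFKO and DKO libraries r was 0.0863, 0.356 and 0.199. Each other pair of groups held a negative r. Whether libraries of the same number were paired is not given, and the tests were not paired outside the replicate block.

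Members and lists were chosen with earlier results of these data known. Genes named were those called, the 3 members with the smallest p in each direction per comparison, role lists, the 5 highest and lowest levels, and the 3 largest and smallest control spreads; Rps18, Rpl3, Rps12, Rpl10a and Rps28 were added after their values were seen. Some members that this rule names are not reported here. Coding words were exact matches of 50 bases on both strands (GENCODE vM39).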

Additional observations from a re-analysis of the deposited data

Results flagged for a closer look

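The Rps2 difference of DKO from AnkGKO was another than that of NFKO from control, and its cause was not tested. The Nfasc counts themselves overlapped between control and NFKO (log2 fold change -0.08, adjusted p = 0.969 by edgeR). In the edgeR fit the interaction was 2.30 on the log2 scale (SE 0.29, adjusted p = 0.00444), with Rps2 lower in all 3 NFKO libraries and not in the 3 DKO libraries, and with Xist as a covariate it was 2.15 with an adjusted p of 0.294.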

How the results depend on the processing

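Rps2 remained called in NFKO against control and in DKO against NFKO under all alternatives. With DESeq2, DKO against NFKO called 2 members, Rps2 among them. With Xist as a covariate, the interaction called 0 members and the median of the members was -0.0239, and the cause was not tested. Leaving out each library in turn gave 1 to 2 members called in NFKO against control (2 without control replicate 3), 0 to 1 in AnkGKO against control (1, Rps15a, without control replicate 3) and 1 to 2 in DKO against NFKO (2 without NFKO replicate 3). Over the same fits the median log2 fold change of the members was 0.00875 to 0.0922 in NFKO against control, -0.0113 to 0.0690 in DKO against control (lowest without DKO replicate 2), -0.0574 to 0.0412 in DKO against NFKO and 0.0302 to 0.0975 in the interaction (highest without NFKO replicate 3 and, at 0.0958, without AnkGKO replicate 1). That of Rpl29 in DKO against control was -1.21 to 0.46 (reversed without control replicate 1). The replicate block changed no call of a member: Rps2 in NFKO against control had a log2 fold change of -2.10 and an adjusted p of 0.0022. Counting limits the members below 1 CPM, where 3 counts correspond to 0.0546 to 0.0780 CPM.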

Other observations

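Rows outside the family that carry the same words were also counted. Gm5148, on chromosome 3, has 349 of its 2121 transcript words in the coding part of Rps23, the gene with 2 counts in total. It stood at 3.15, 3.46 and 3.55 CPM in control, 0.153, 0.0193 and 0.186 CPM in NFKO, 0.0825 and 0 CPM in AnkGKO, and 3.78, 3.20 and 3.91 CPM in DKO, so that the single knockouts did not overlap control or DKO. By edgeR its difference from control had an adjusted p of 0.00113 in NFKO (log2 fold change -4.79) and 0.00346 in AnkGKO. It was chosen after its values were seen, and reads of such copies cannot be told apart from those of Rps23 over the shared words. Gm10136, with 215 of its 386 words in the coding part of Rpl26, which had 0 counts, stood at 0.0956 to 0.362 CPM over all libraries. Rps19-ps3, with 93 of its 377 words in Rps19, stood at 0.754 to 1.13 CPM, while Rps19 stood at 5.93 to 8.43 CPM. Of the 19 rows of this kind examined, 9 had enough counts to be tested.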
